A study of Mus musculus with 4 samples.

Results

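The genes of the major histocompatibility complex (MHC) and of antigen presentation were described in EGFP-positive and Tomato-positive cells sorted from mouse trachea and stomach. They were the protein-coding genes whose symbol starts with H2-, which gave 34 genes, and 11 further genes added by name (B2m, Cd74, Ciita, Nlrc5, Tap1, Tap2, Tapbp, Psmb8, Psmb9, Psmb10 and Cd1d1). This gave 45 of the 48709 genes in the table. By name, 32 belonged to the class I pathway, 11 to the class II pathway, 1 to the CD1 family (Cd1d1), and 1 (H2-Ke6) has another function.

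Every library came from Tas2r143-CreERT2;Rosa26flox-mT-stop-flox-mG mice on a C57BL/6 background that received tamoxifen for 5 days and were analysed 5 days after the final injection, so all groups shared the transgene, the reporter and the treatment. CreERT2, a Cre recombinase that needs tamoxifen to act, was driven in 1 transgenic line by the promoter of the bitter taste receptor gene Tas2r143, and recombination switches a cell from red Tomato to green EGFP. The EGFP gate took live EGFP-positive cells with no demand for the epithelial surface protein EpCAM, whereas the Tomato gate took live cells that were positive for Tomato and EpCAM and negative for EGFP. Equal numbers of cells were sorted, the cells of 3 mice were pooled, and each of the 4 groups (trachea EGFP, trachea Tomato, stomach EGFP, stomach Tomato) was 1 library, so no group had replicates. The mice were adult when tamoxifen was given, and their exact ages were not given in the sources used here.

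Class I molecules, made of a heavy chain and beta-2 microglobulin, are carried by nearly all nucleated cells and show peptides cut in the cytosol by the proteasome to CD8 T cells. Class II molecules, made of an alpha and a beta chain, show peptides from endosomes to CD4 T cells and are typical of dendritic cells, macrophages and B cells, although epithelial cells of airway and gut can carry them too. The invariant chain Cd74 holds the class II groove until the peptide is loaded with the help of the H2-DM molecule, and the promoters of both classes share a set of short elements, among them an inverted CCAAT box called the Y box. In C57BL/6 mice the gene for the alpha chain of the second class II molecule is a pseudogene, so the product of H2-Eb1 lacks its usual partner.

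The 100 bases before an annotated start are shown for the main class I genes and for H2-Aa, H2-Eb1 and H2-DMb1 of class II. They are examples of promoters that hold the letters of the CCAAT box. A link of these letters to the levels below was not tested. H2-K1 has 2 annotated starts, and the window of the downstream one is shown. ATTGG and its reverse complement CCAAT are in capitals, the sequences run 5′ to 3′ along the gene's strand, and they are from RefSeq on GRCm38.p6. H2-K1 and H2-D1 encode the classical class I heavy chains, and their windows were chr17:34000334-34000433 on the minus strand and chr17:35262994-35263093 on the plus strand. B2m encodes beta-2 microglobulin (chr2:122147587-122147686 on the plus strand). H2-Aa and H2-Eb1 encode class II chains (chr17:34287824-34287923 on the minus strand, chr17:34305767-34305866 on the plus strand), and H2-DMb1 encodes the beta chain of H2-DM (chr17:34153091-34153190 on the plus strand).

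H2-K1: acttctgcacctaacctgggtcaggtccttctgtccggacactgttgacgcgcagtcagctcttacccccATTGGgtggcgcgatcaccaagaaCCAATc
H2-D1: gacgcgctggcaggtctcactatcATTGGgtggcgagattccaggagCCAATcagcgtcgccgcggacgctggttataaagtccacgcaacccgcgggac
B2m: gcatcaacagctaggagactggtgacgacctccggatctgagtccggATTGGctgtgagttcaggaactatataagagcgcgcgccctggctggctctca
H2-Aa: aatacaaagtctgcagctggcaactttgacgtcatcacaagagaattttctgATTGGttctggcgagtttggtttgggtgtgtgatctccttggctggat
H2-Eb1: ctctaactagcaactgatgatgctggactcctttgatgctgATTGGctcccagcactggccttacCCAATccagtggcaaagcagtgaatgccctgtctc
H2-DMb1: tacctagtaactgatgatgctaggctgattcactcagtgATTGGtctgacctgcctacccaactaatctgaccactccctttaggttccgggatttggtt

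ATTGG on either strand was present in the promoter window of the RefSeq table, which spans the start, in 23 of 28 class I genes and in 8 of 8 class II genes with an entry, against 37.4% of 32851 promoters. The longer CTGATTGG, which contains ATTGG, was found in 15 of 28 class I genes and 4 of 8 class II genes, against 4.10% of all promoters. For both motifs a gene counted if any of its starts matched, whereas the background counted every promoter entry, so the shares are on unlike units. The printed bases of H2-K1, H2-D1 and H2-Eb1 each held ATTGG once in each orientation, and those of B2m, H2-Aa and H2-DMb1 held it once. Counted from the other H2-K1 start, the CCAAT lay after the start. In all, 37 of the 45 genes matched an entry. The genes without one were Cd1d1, Cd74, Ciita, H2-Ab1, H2-Q1, H2-T24, Nlrc5 and Tap2. A match is a description of the letters and not a site of binding.

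The 4 libraries held 9979296 to 15433150 normalized counts each, the unit of the deposited table. Judged by the spacing of the small values, a single read equalled 1.61 normalized counts in trachea EGFP cells and 0.786 to 0.816 in the other 3 groups, so the trachea EGFP library rested on about 6.2 M assigned reads and the others on 17.3 to 18.9 M. A value of 0 therefore allowed up to 4.83 normalized counts in trachea EGFP cells and up to 2.36 to 2.45 elsewhere (3 reads). Each sample's title and its tissue field named opposite tissues. The table's columns matched the titles, which were followed, and the summed airway epithelial markers were 59304 and 1310943 in the libraries titled trachea against 4 and 86 in those titled stomach. Of 8 tuft cell markers, 7 of 7 at 50 normalized counts or more in the trachea and 8 of 8 in the stomach were at least 4-fold higher in EGFP cells. Immunoglobulin genes took 12.9% of the stomach EGFP library and 0.0230% to 0.549% of the others.

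Genes were called higher or lower in a comparison of 2 libraries when log2((a + 1)/(b + 1)) of the normalized counts was 2 or more, or -2 or less (4-fold), and the larger of both values was at least 50. This is a rule of size and not a test. Ratios are given with 95% exact binomial intervals on the estimated reads, which cover counting error only, since the reads carried no molecular identifiers and no group had a second library. In sorted pools, fewer cells of a type and less RNA per cell cannot be told apart. Of the 45 genes, 25 reached 50 normalized counts in at least 1 library (16 class I, 8 class II and Cd1d1). The other 20 stayed at 42 or below, and 9 of them, all class I heavy chain genes of the H2-M group, were at 0 in every library. Where 4 values are given without their libraries, the order is trachea EGFP, trachea Tomato, stomach EGFP and stomach Tomato.

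**Figure D1:**
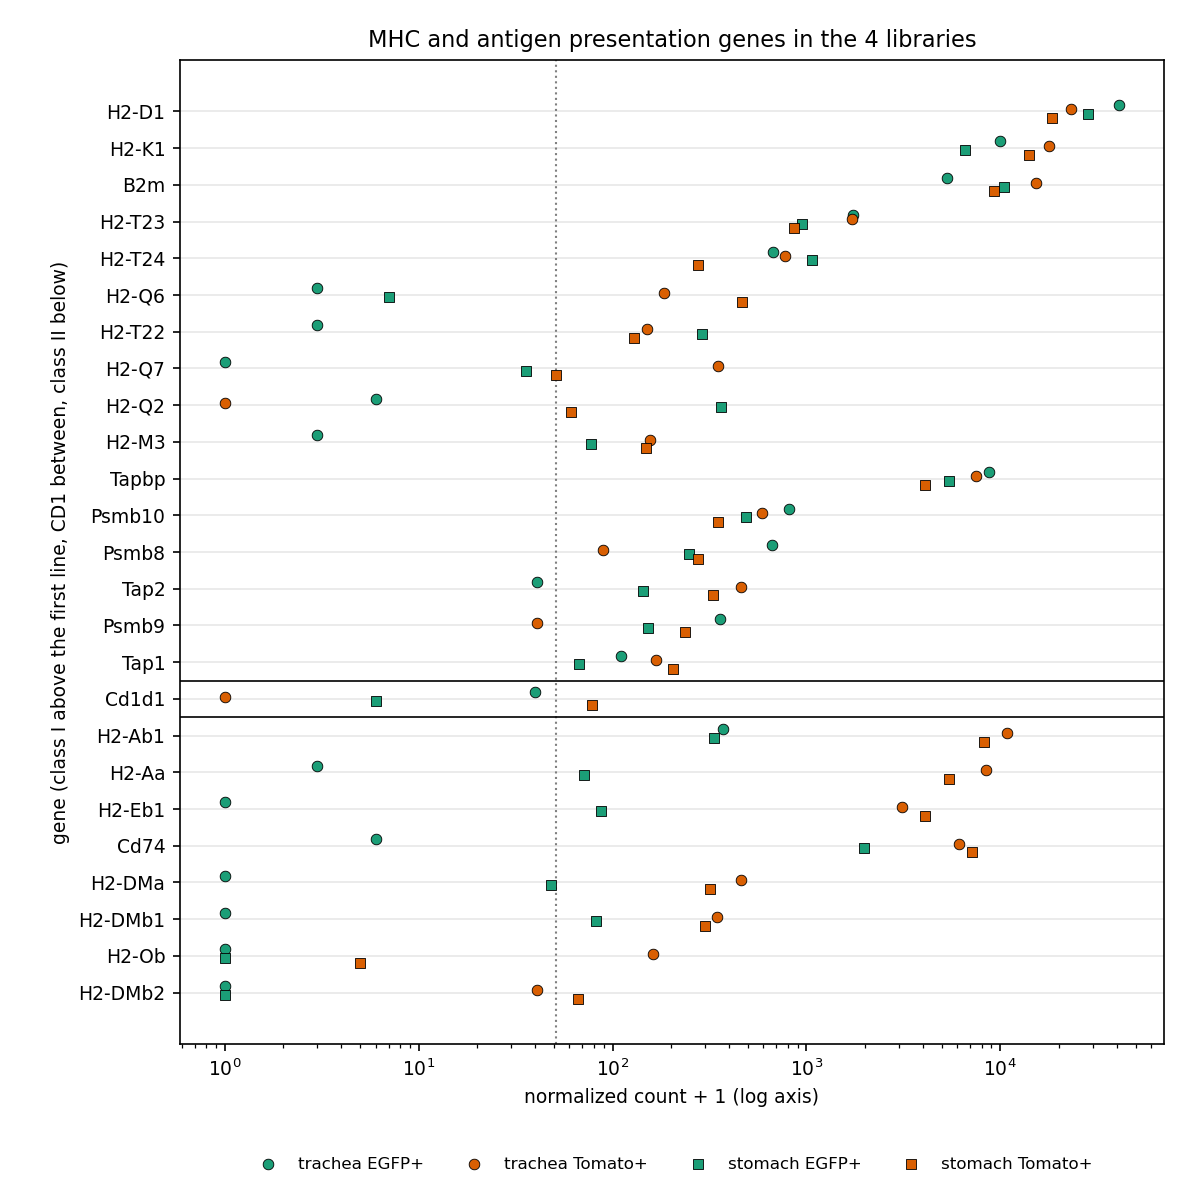
Normalized count + 1 (log axis) of the 25 genes that reached 50 normalized counts (dotted line, drawn at 51) in at least 1 library, 1 symbol per library, with circles for trachea, squares for stomach, green for EGFP and orange for Tomato. H2-D1, H2-K1 and B2m lay between 5304 and 41076 in all 4 libraries, while H2-Ab1, H2-Aa and H2-Eb1 lay at 3106 to 10812 in both Tomato libraries and at 0 to 372 in both EGFP libraries.

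Class I and class II genes were first compared by their summed levels. The 24 class I heavy chain genes summed to 5366 CPM (normalized counts rescaled so that every library has the same total) in trachea EGFP cells, 2968 in trachea Tomato cells, 2764 in stomach EGFP cells and 2237 in stomach Tomato cells. The 4 class II chain genes (H2-Aa, H2-Ab1, H2-Eb1, H2-Eb2) summed to 37.5, 1500, 36.1 and 1153 CPM in the same order. Class II chains were low in both EGFP libraries and high in both Tomato libraries, while class I heavy chains differed between sorts by less than the 4-fold rule.

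The sum of class I heavy chains over that of class II chains was 143 in trachea EGFP cells and 76.6 in stomach EGFP cells, against 1.98 and 1.94 in the Tomato cells of the 2 tissues. On the deposited scale the class II chain sum was 59.6-fold lower in EGFP than in Tomato cells of the trachea (interval 52.5 to 68.3) and 36.2-fold lower in the stomach (33.4 to 39.2). The class I heavy chain sum was 1.21-fold higher in EGFP cells of the trachea (1.20 to 1.23) and 1.09-fold higher in the stomach (1.08 to 1.11). Of the class I heavy chain sum, H2-K1 and H2-D1 made up 92.4% to 95.4% in each library.

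**Figure D2:**
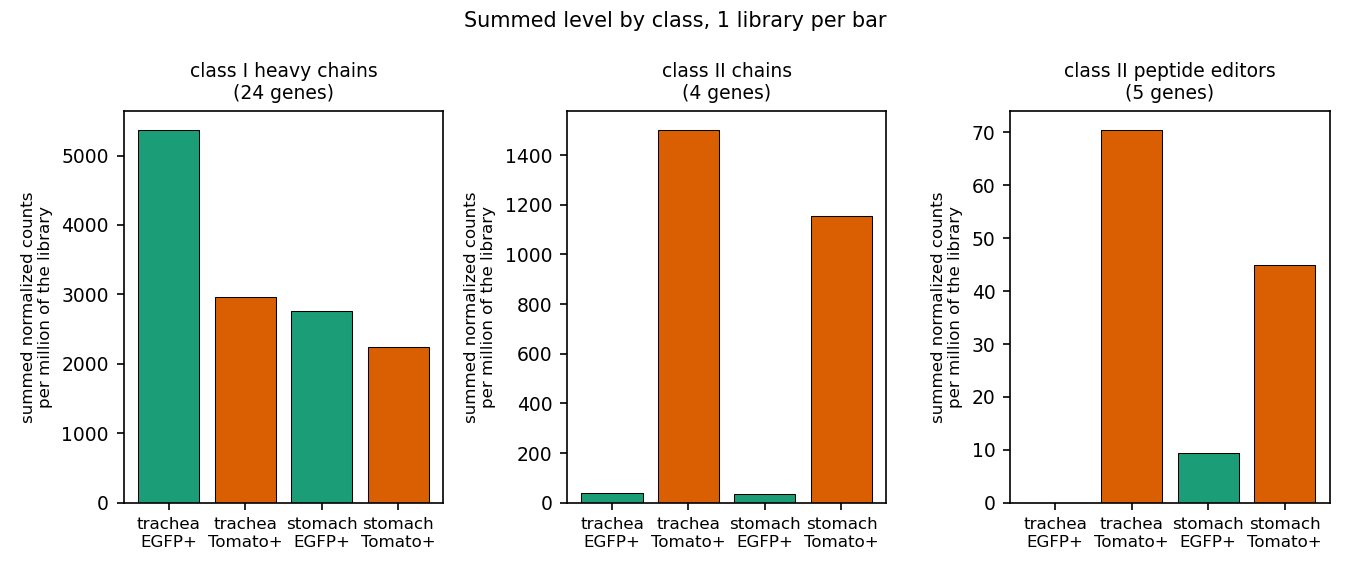
Summed level in CPM (vertical axis, normalized counts on the same total per library) of class I heavy chains, class II chains and class II peptide editors (H2-DM and H2-O genes), 1 bar per library with no replicates and a separate vertical axis from 0 in each panel. Class II chains reached 1500 and 1153 CPM in Tomato cells against 37.5 and 36.1 in EGFP cells, and the peptide editors were at 0 in trachea EGFP cells.

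Between EGFP and Tomato cells of the trachea, 7 of the 7 class II genes at the minimum were lower in EGFP cells, and of 15 class I genes 2 were higher (Psmb8 and Psmb9), 5 were lower and 8 were neither. Of all 10523 genes at the minimum, 25.2% were higher and 32.4% were lower in this comparison. The median log2 ratio was -8.85 for class II, -0.60 for class I and -0.32 for all genes. With the 4 class II genes that were at 0 in EGFP cells set to their bound, the class II median was -6.57.

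In the stomach, 5 of 7 class II genes were lower in EGFP cells and none was higher, and of 16 class I genes 1 was higher (H2-Q2), 1 was lower (H2-Q6) and 14 were neither. The background here was 14.8% higher and 22.4% lower of 11094 genes. The median log2 ratio was -4.63 for class II, -0.02 for class I and -0.15 for all genes. The share of class I genes called was thus below the background in both directions in the stomach, and that of class II genes called lower was above it in both tissues.

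**Figure D3:**
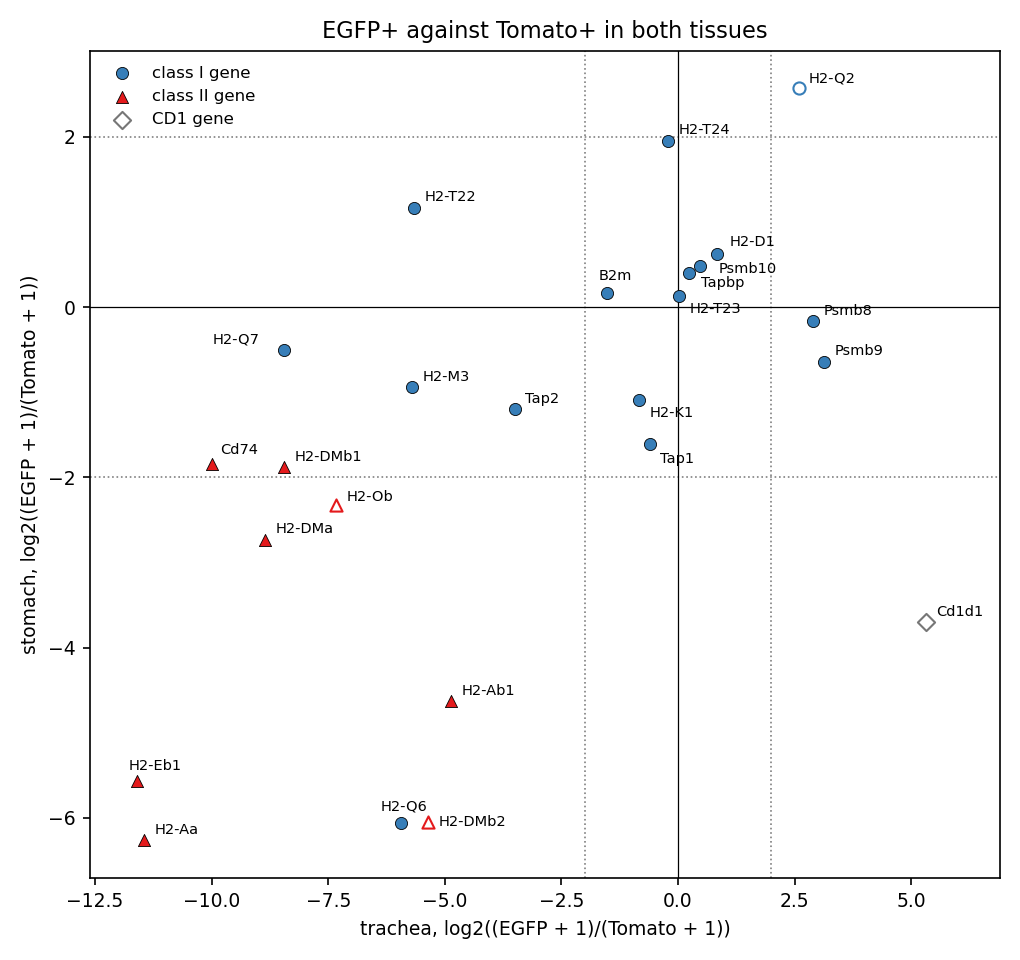
log2((EGFP + 1)/(Tomato + 1)) in the trachea (horizontal axis) against the stomach (vertical axis) for the 25 genes, with class I as circles, class II as triangles and Cd1d1 as a diamond, and dotted lines at the 4-fold rule. Open symbols mark genes under 50 normalized counts in both libraries of 1 tissue, and every class II gene lay below 0 on both axes.

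Across the 4 libraries, the sort difference averaged over both tissues was tested with limma on log2(normalized count + 1). The fit had sort and tissue as additive terms, 1 residual degree of freedom and Benjamini-Hochberg adjustment over 13023 genes. A gene's own SD in this fit reflects only how far its sort difference departed between the tissues. For the sort term, 4 of the 25 genes were called at an adjusted p below 0.05, all lower in EGFP cells and all class II, and none of the 16 class I genes was called (1, H2-Q6, had an unadjusted p under 0.05). Of all genes tested, 2.33% were called for this term. H2-Aa had a log2 difference of -8.86 (SE 1.43, limma adjusted p = 2.926e-07), H2-Ab1 one of -4.74 (SE 0.87, adjusted p = 1.467e-05), H2-Eb1 one of -8.58 (SE 1.70, adjusted p = 8.856e-05) and Cd74 one of -5.92 (SE 1.07, adjusted p = 1.134e-05). These p-values rest on a spread borrowed from all genes, because the fit gave each gene's own spread no weight. The own SD of H2-Ab1 was 0.115, that of Cd74 was 4.08, and without the minimum on low values limma called none of 36 genes (5 at an unadjusted p under 0.05).

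The class II chains were lower in EGFP cells of both tissues. H2-Ab1, the beta chain of the I-A molecule, was at 372 normalized counts in trachea EGFP cells, 10812 in trachea Tomato cells, 332 in stomach EGFP cells and 8231 in stomach Tomato cells. It was 29.1-fold lower in EGFP cells of the trachea (interval 25.5 to 33.3) and 24.8-fold lower in those of the stomach (22.5 to 27.4). H2-Ab1 was the only class II gene above the minimum of 50 normalized counts in trachea EGFP cells, and its 2 EGFP values differed 1.12-fold with an interval that included 1 (0.951 to 1.32).

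H2-Aa, its alpha chain partner, was at 2, 8389, 70 and 5449 in the same order. The 2 normalized counts in trachea EGFP cells correspond to about 1 read, and the ratio of Tomato to EGFP cells was 4195 with an interval from 935 to 205834. In the stomach H2-Aa was 77.8-fold lower in EGFP cells (63.2 to 97.1). Per kilobase of exon, H2-Ab1 over H2-Aa was 1.91 in trachea Tomato cells and 2.23 in stomach Tomato cells, against 7.01 in stomach EGFP cells and 275 in trachea EGFP cells. The alpha and beta chain levels were therefore closest to each other in the Tomato libraries.

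H2-Eb1, the beta chain of the I-E molecule, was at 0, 3106, 86 and 4109. It was at least 643-fold lower in EGFP than in Tomato cells of the trachea, taking 3 reads as the limit that a count of 0 allows, and 47.8-fold lower in the stomach (39.7 to 58.5). H2-Eb2 stayed at 0 to 4, and the pseudogene of the I-E alpha chain was at 0 in every library.

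Cd74, the invariant chain, departed from the class II chains in the stomach. It was at 5 normalized counts in trachea EGFP cells, 6144 in trachea Tomato cells, 1973 in stomach EGFP cells and 7105 in stomach Tomato cells. The trachea values differed 1229-fold (interval 435 to 6170), whereas the stomach values differed 3.60-fold (3.44 to 3.77), short of the 4-fold rule. Relative to the summed class II chains of its own library, Cd74 was at 0.275 in trachea Tomato cells and 0.399 in stomach Tomato cells, at 4.01 in stomach EGFP cells and at 0.0134 in trachea EGFP cells. Cd74 was also the only gene of the 25 called by limma for the tissue term (log2 trachea over stomach -4.29, adjusted p = 0.007078), where 1.74% of all genes were called. This call was lost without the minimum and with a pseudocount of 0.1, and the moderated SD behind it was 1.07 against the gene's own 4.08. Between the Tomato libraries it differed 1.16-fold (1.12 to 1.19) and between the EGFP libraries 395-fold (140 to 1982).

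Most B and plasma cell markers had their highest value in the stomach EGFP library, although not all. Cd79a, part of the B cell receptor complex, was at 791 there, at 0 in both trachea libraries and at 20 in stomach Tomato cells. Cd79b was at 1386 and 2855 in the trachea and stomach EGFP cells and at 1 and 2 in the Tomato cells. The 13 B and plasma cell markers summed to 34281, 8875, 1397696 and 70863 in trachea EGFP, trachea Tomato, stomach EGFP and stomach Tomato cells, with 6, 6, 2 and 3 of them at 0. Most of the stomach EGFP sum came from Igha, Igkc and Jchain, at 669648, 530119 and 149752 there. In trachea EGFP cells, where Cd74 was at 5, they were at 11389, 12790 and 5156. Most of the trachea Tomato sum came from Sdc1, which was at 0, 5642, 499 and 1023. Of 10 markers at the minimum in the EGFP libraries, 7 were lower in the trachea and 1, Pax5, was higher, against 28.3% and 19.8% of all genes. Between the sorts of the stomach, 8 of 10 were higher and 1 was lower in EGFP cells, against 14.8% and 22.4%. In the trachea 5 of 8 were higher and 2 were lower in EGFP cells, against 25.2% and 32.4%. Cd74 was lower in the EGFP library of each tissue, so most of these markers had the opposite direction between the sorts. Named after their values were seen, Pax5 was at 280, 0, 0 and 0, Blnk at 3278, 1686, 1625 and 225, Cd22 at 0, 0, 1 and 104, and Ms4a1 was at 0 in every library. The pan-leukocyte gene Ptprc was at 338, 1, 1051 and 768. What part cells of this lineage had in the Cd74 value was not tested.

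The summed class II peptide editors were lower in EGFP cells of both tissues. The difference was at least 176-fold in the trachea, by the limit of the 95% interval, and 5.41-fold in the stomach (4.57 to 6.43). For the sort term limma called none of the 4 measured editors (adjusted p 0.303 to 0.8305, with H2-DMa and H2-DMb1 at an unadjusted p under 0.05). H2-DMa and H2-DMb1, which form the H2-DM molecule that exchanges peptides on class II, were at 459 and 346 in trachea Tomato cells, 318 and 300 in stomach Tomato cells, 47 and 81 in stomach EGFP cells and 0 in trachea EGFP cells. With 3 reads as the limit for a count of 0, H2-DMa was at least 95-fold lower in EGFP cells of the trachea. It was 6.77-fold lower in those of the stomach (5.13 to 9.01). H2-DMb1 was at least 71.6-fold lower in the trachea by the same limit and 3.70-fold lower in the stomach (2.97 to 4.66), the latter short of the 4-fold rule. H2-DMb2, a second beta chain, was at 40 and 65 in the trachea and stomach Tomato cells and at 0 in both EGFP libraries. It shared 16.2% of its 75-base windows with other genes, and H2-DMb1 15.8%, so reads may be missing from both.

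H2-Ob, the beta chain of the H2-O molecule that restrains H2-DM, separated the Tomato libraries. It was at 161 in trachea Tomato cells, 4 in stomach Tomato cells and 0 in both EGFP libraries, and it was 40.3-fold higher in the trachea (16.6 to 123). Its partner H2-Oa stayed under the minimum with 41 and 6 in the same Tomato libraries and 0 in the EGFP libraries, named here after its values were seen. Ciita, the transactivator of class II genes, and Nlrc5, that of class I genes, also stayed under the minimum. Ciita was at 0, 0, 1 and 0, and Nlrc5 at 0, 0, 2 and 15, and both were named after their values were seen.

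Between the sorts, summed markers of dendritic and myeloid cells had the same direction as the class II genes, while the counts of markers called between the tissues differed from those of the class II genes. The 19 markers summed to 1838 and 42177 in trachea EGFP and Tomato cells and to 1066 and 13447 in stomach EGFP and Tomato cells, with 13, 8, 16 and 4 of them at 0. Most of the trachea Tomato sum came from Lyz2, at 35491 there. Nearly all of the stomach EGFP sum came from Ptprc, at 1051 there, which was itself higher in the EGFP library of each tissue. Of those at the minimum, 7 of 10 were lower and 2 higher (Ptprc and Zbtb46) in EGFP cells of the trachea, against 32.4% and 25.2% of all genes, and 10 of 11 were lower in those of the stomach, against 22.4%. Between the EGFP libraries 4 of 5 were higher in the trachea and none was lower (19.8% and 28.3% of all genes), where 4 of 5 class II genes were lower. Between the Tomato libraries 7 of 13 were lower and 3 higher in the trachea (27.9% and 20.3% of all genes), where none of 8 class II genes was lower. The integrin gene Itgax, typical of dendritic cells, was at 0, 1623, 0 and 4, Lyz2 at 470, 35491, 0 and 5413, and the macrophage gene Adgre1 at 0, 0, 0 and 908. The dendritic cell genes Flt3, Clec9a and Cd207 were at 0 in all 4 libraries. Epcam, the surface protein required by the Tomato gate, was at 5871, 1450, 4648 and 1751. Fibroblast and endothelial markers (9 genes) summed to 738, 25858, 768 and 25458 with 4, 2, 2 and 0 of them at 0, and T cell and innate lymphocyte markers (13 genes) to 98, 1948, 205 and 757 with 12, 9, 10 and 9 at 0. The part of any of these cells in the class II levels of the Tomato libraries was not tested.

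The 2 classical class I heavy chains had opposite directions between the sorts, both short of the 4-fold rule. H2-D1 was at 41076 normalized counts in trachea EGFP cells, 23026 in trachea Tomato cells, 28262 in stomach EGFP cells and 18409 in stomach Tomato cells, so both EGFP libraries were above both Tomato libraries. It was 1.78-fold higher in EGFP cells of the trachea (1.75 to 1.81) and 1.54-fold higher in those of the stomach (1.51 to 1.56). By normalized count it ranked 14 among 11522 genes above 0 in trachea EGFP cells and 46 to 68 in the other libraries. H2-K1 was at 10006, 17753, 6610 and 14129 in the same order, with both EGFP libraries below both Tomato libraries on the deposited scale. With the same total for all libraries, trachea EGFP cells lay above stomach Tomato cells, and the EGFP library stayed below the Tomato library of its own tissue. H2-K1 was 1.77-fold lower in EGFP cells of the trachea (1.72 to 1.83) and 2.14-fold lower in those of the stomach (2.08 to 2.19). For the sort term limma gave an adjusted p of 0.608 for H2-D1 and 0.5523 for H2-K1.

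The ratio of H2-D1 to H2-K1 within a library does not depend on how libraries are scaled. It was 4.11 in trachea EGFP cells (interval 3.99 to 4.22), 4.28 in stomach EGFP cells (4.18 to 4.38), 1.30 in trachea Tomato cells (1.27 to 1.32) and 1.30 in stomach Tomato cells (1.28 to 1.33). Per kilobase of exon the ratios were 4.68, 4.87, 1.48 and 1.48. The ratio was higher in both EGFP libraries than in both Tomato libraries, by more than the counting error, and it was close to the same value in both tissues of a sort. With 2 libraries against 2, an exact two-sided permutation test cannot give a p below 0.333. Of 75-base windows in the transcripts, 5.56% for H2-D1 and 3.10% for H2-K1 also occurred in another gene, and the authors left out reads that aligned to several places. H2-D1 lies at chr17:35262730-35267499 and H2-K1 at chr17:33996017-34000347 (GRCm38, GENCODE M21).

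**Figure D4:**
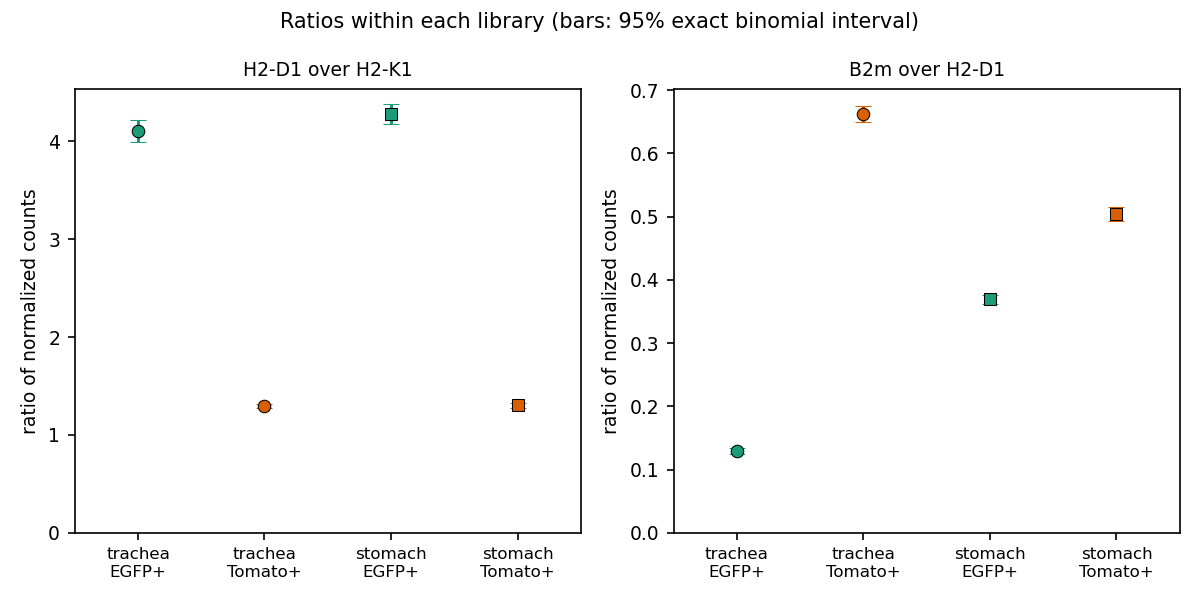
Ratios of normalized counts within each library for H2-D1 over H2-K1 (left) and B2m over H2-D1 (right), 1 symbol per library with its 95% exact binomial interval, which covers counting error only. H2-D1 over H2-K1 was 4.11 and 4.28 in EGFP cells against 1.30 and 1.30 in Tomato cells, and B2m over H2-D1 was lowest in trachea EGFP cells at 0.129.

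B2m, the light chain that every class I heavy chain needs, was at 5304, 15239, 10434 and 9279 in trachea EGFP, trachea Tomato, stomach EGFP and stomach Tomato cells. It was 2.87-fold lower in EGFP cells of the trachea (2.77 to 2.98) and 1.12-fold higher in those of the stomach (1.10 to 1.15). Relative to H2-D1 of the same library, B2m was at 0.129, 0.662, 0.369 and 0.504, so this ratio was lower in the EGFP library of each tissue. In the stomach its direction depended on the heavy chain chosen. H2-D1 was 1.54-fold higher in EGFP cells there, while H2-K1 was 2.14-fold lower, so a ratio of B2m to H2-K1 has the opposite direction. None of the 75-base windows of B2m occurred in another gene.

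The genes that supply peptides to class I molecules had no common direction. Psmb8, Psmb9 and Psmb10 encode the catalytic subunits of the immunoproteasome, the form of the proteasome induced by interferon. Psmb8 was at 660, 88, 246 and 276 and Psmb9 at 359, 40, 151 and 236. Both were higher in EGFP cells of the trachea, Psmb8 by 7.50-fold (6.05 to 9.33) and Psmb9 by 8.98-fold (6.62 to 12.6). In the stomach Psmb8 was 1.12-fold lower with an interval that included 1 (0.958 to 1.31), and Psmb9 was 1.56-fold lower (1.30 to 1.89). Psmb10 was at 816, 587, 489 and 351 and was 1.39-fold higher in EGFP cells of both tissues (1.24 to 1.56 and 1.23 to 1.58). The low values of Psmb8 and Psmb9 were thus those of trachea Tomato cells.

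Tap1 and Tap2 form the transporter that brings peptides into the endoplasmic reticulum. Tap1 was at 109, 166, 66 and 204 and Tap2 at 40, 461, 142 and 327, so the EGFP library was below the Tomato library in both tissues for both genes. Tap2 was 11.5-fold lower in EGFP cells of the trachea (7.68 to 17.9) and 2.30-fold lower in those of the stomach (1.93 to 2.76). For Tap1 the differences were 1.52-fold (1.15 to 2.02) and 3.09-fold (2.4 to 4.01). Tap1 and Psmb9 lie head to head on opposite strands with overlapping ends, and reads that overlapped several genes were left out, so both values may miss reads there. Tapbp, tapasin, which bridges the transporter and the heavy chain, was at 8756, 7487, 5408 and 4091 and was 1.17-fold (1.13 to 1.21) and 1.32-fold (1.27 to 1.37) higher in EGFP cells.

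The nonclassical heavy chains, whose products include ligands of natural killer and unconventional T cells, were measured at 50 normalized counts or more for 7 of 22 genes. H2-T23, which encodes Qa-1, the ligand of the CD94 and NKG2 receptors, was at 1736, 1714, 943 and 861. It differed 1.01-fold between the sorts of the trachea (0.940 to 1.09) and 1.10-fold in the stomach (1.01 to 1.19), and was about 1.84-fold (1.69 to 2.0) and 1.99-fold (1.85 to 2.15) higher in the trachea within EGFP and Tomato cells. H2-T24 was at 670, 778, 1074 and 276, which was 1.16-fold lower in EGFP cells of the trachea (1.03 to 1.31), a direction that turned when all libraries were given the same total, and 3.89-fold higher in those of the stomach (3.45 to 4.40). H2-M3, which presents formylated peptides, was at 2, 156, 76 and 147.

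The H2-Q genes had 0 or a few counts in 1 or more libraries. H2-Q2 was at 5, 0, 361 and 60, and so was 6.02-fold higher in EGFP cells of the stomach (4.67 to 7.74) while the trachea stayed under the minimum. H2-Q6 was at 2, 183, 6 and 465 and H2-Q7, which encodes Qa-2, at 0, 351, 35 and 50. H2-Q6 was 77.5-fold lower in EGFP cells of the stomach (37.3 to 172), whereas H2-Q7 differed there 1.43-fold with an interval that included 1 (0.942 to 2.12). Their transcripts shared 75-base windows with other genes, at 21.1% for H2-Q6 and 17% for H2-Q7, and 197 windows were common to both. Reads that aligned to several places were left out, so reads may be missing from both genes. Summed, H2-Q6 and H2-Q7 were at 2, 534, 41 and 515, lower in the EGFP library of each tissue.

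H2-T22 was at 2, 150, 289 and 128, which put it 75-fold lower in EGFP cells of the trachea (16.5 to 3691) and 2.26-fold higher in those of the stomach (1.87 to 2.74). Of its 75-base windows, 40.0% occurred in another gene. The largest shares were 25.2% in A930015D03Rik and 15.7% in H2-T10, which the annotation lists as a polymorphic pseudogene. H2-T10, examined after these values were seen, was at 100, 1, 2 and 2. The sum of H2-T22 and H2-T10 was 102, 151, 291 and 130, which did not pass the 4-fold rule in either tissue (log2 -0.56 and 1.16). A930015D03Rik was not part of this sum. H2-Q4 was at 42, 5, 4 and 6, the highest value among the 20 genes under the minimum.

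Cd1d1, the MHC-like molecule that shows lipids to natural killer T cells, was at 39, 0, 5 and 77. It was 15.4-fold lower in EGFP cells of the stomach (7.20 to 45.4), and the trachea pair stayed under the minimum with the EGFP library as the higher one. The high library was therefore the EGFP library in the trachea and the Tomato library in the stomach, at levels near the minimum.

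Within the EGFP cells, trachea and stomach were compared next. None of 14 class I genes was higher in the trachea and 3 were lower (H2-M3, H2-Q2 and H2-T22), and 4 of 5 class II genes were lower, with H2-Ab1 as the exception. The background was 19.8% higher and 28.3% lower of 10337 genes. The median log2 ratio of trachea over stomach was 0.57 for class I, -6.36 for class II and -0.16 for all genes. With the 2 class II genes at 0 in the trachea set to their bound the class II median was -4.15. H2-Aa rested on about 1 read in the trachea against 70 normalized counts in the stomach, and H2-Eb1 was at least 17.8-fold and H2-DMb1 at least 16.8-fold lower in the trachea, while Cd74 was lower as given above.

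Within the Tomato cells, the classes were close between the tissues. Of 16 class I genes 1 was higher in the trachea (H2-Q7, 7.02-fold, 5.39 to 9.38) and 2 were lower (Psmb9, 5.90-fold, 4.38 to 8.23, and H2-Q2, at least 24.7-fold). Of 8 class II genes 1 was higher (H2-Ob) and none was lower, and Cd1d1 was lower (at least 31.7-fold). The background was 20.3% higher and 27.9% lower of 11338 genes, so the share of MHC genes called was below it in both directions. The median log2 ratios were 0.33 for class I, 0.30 for class II and -0.11 for all genes. H2-Aa was 1.54-fold (1.49 to 1.59) and H2-Ab1 1.31-fold (1.28 to 1.35) higher in the trachea, and H2-Eb1 1.32-fold lower (1.27 to 1.38).

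Other genes of the 2 pathways were counted from lists, to be read against the shares of all genes called, which were 25.2% higher and 32.4% lower in EGFP cells of the trachea and 14.8% and 22.4% in those of the stomach. Of 11 class I loading genes at the minimum in the trachea (chaperones, the proteasome activator, aminopeptidases), none was higher and 1 was lower in EGFP cells, and of 12 in the stomach 1 was higher and none was lower. These were Erap1, an aminopeptidase that trims peptides in the endoplasmic reticulum, at 0, 2308, 98 and 174, and Lnpep, an endosomal aminopeptidase, at 0, 2, 358 and 24. The tapasin relative Tapbpl was called between the Tomato libraries only, at 590 in the trachea and 83 in the stomach. Of 9 class II loading genes at the minimum, 1 was higher and 4 were lower in the trachea and 2 were lower in the stomach. The endosomal protease Ctss, which trims the invariant chain, was at 0, 547, 1150 and 2348, and Ifi30, a lysosomal thiol reductase, at 64, 273, 546 and 1063. Both were lower in EGFP than in Tomato cells of each tissue, with only the trachea pairs past the 4-fold rule. Lgmn, another endosomal protease, was at 316, 28, 232 and 1417 and so was higher in EGFP cells of the trachea and lower in those of the stomach. March8, a ubiquitin ligase for class II, was at 27, 136, 290 and 162. It was lower in EGFP cells of the trachea and higher in those of the stomach, the latter short of the 4-fold rule.

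Of 15 transcription and interferon signalling genes at the minimum, none was higher and 3 were lower in EGFP cells of the trachea, and 1 was higher and 1 was lower in the stomach, all of them shares below those of all genes. Rfxank and Rfxap, subunits of the RFX complex that binds MHC promoters, were at 35, 972, 1246 and 493 and at 16, 0, 66 and 7. Creb1, which binds the neighbouring element, was at 2, 5358, 693 and 482, and Irf8, a factor of dendritic and B cells, at 0, 503, 35 and 45. Of the costimulation genes, 1 of 6 was higher and 5 were lower in EGFP cells of the trachea, and 2 of 5 were higher and 3 were lower in the stomach. Cd83, which stabilises class II at the surface, was at 0, 409, 169 and 2854, Cd86 at 0, 0, 0 and 328, Vtcn1 at 0, 410, 0 and 0, and Cd276 at 0, 3, 517 and 56. Cd274 was at 66, 0, 410 and 11 and was called higher in EGFP cells of both tissues. None of 5 natural killer ligand genes reached the minimum.

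Directions of small differences depended on the scaling. When all libraries were given the same total, log2 ratios of EGFP over Tomato rose by 0.58 in the trachea and 0.18 in the stomach, and trachea over stomach rose by 0.45 in EGFP cells. Under it the median of all genes in the trachea moved from -0.32 to 0.26, and the share of genes called lower fell from 32.4% to 28.8% while that called higher rose from 25.2% to 29.5%. H2-D1 stayed higher and H2-K1 lower in EGFP cells of both tissues under this scaling, and H2-Ab1, H2-Aa, H2-Eb1 and Cd74 stayed lower. The stomach class I median turned from -0.02 to 0.16, so no direction is given for class I as a whole there.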

How the data were processed

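RNA of FACS-sorted cells was amplified by the authors with a SMART-Seq low input kit and sequenced as single reads of 75 bases. Trimmed reads were aligned by the authors to GRCm38 (mm10) with STAR 2.4.0a and counted per gene with featureCounts 1.4.5-p1, and reads with more than 1 gene or alignment position were discarded, so genes with near-identical copies can lose reads. The deposited table holds 1 column of normalized counts per library, a score rounded to whole numbers. The scaling factor and the strandedness of the libraries were not given in the sources used here. Rounding left whole reads unrecoverable for the 3 libraries in which 1 read was worth less than 1, so edgeR and DESeq2 were not run.

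From the table, log2((a + 1)/(b + 1)), class sums and exact binomial intervals on estimated reads were computed in Python 3.11.15 with scipy 1.17.1, and limma 3.58.1 in R 4.3.3 was fitted over all 4 libraries after a minimum of 50 normalized counts in at least 1 library. The rule of size, the estimate of the worth of 1 read and the limma fit were tested on simulated data. Every gene of the set that reached 50 normalized counts is named with its values. Of the other pathway lists, up to 4 called genes per list are named by size, beside Ptprc, Itgax, Cd79a and Epcam, and 1 further gene of that rule is not reported here. The genes and lists were chosen with earlier results of these data known. Exon lengths and positions are from GENCODE M21, and promoter sequences from RefSeq on GRCm38.p6. Alternatives were other pseudocounts, minimums, fold rules and scalings. A robust limma fit and sums of related genes were added after the data had been seen. With 1 library per group, p-values measure only the spread left by the additive fit.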

Additional observations from a re-analysis of the deposited data

Results flagged for a closer look

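For 3 class I genes the EGFP over Tomato difference had opposite directions in the 2 tissues, with both counting intervals excluding a ratio of 1 and log2 ratios at least 2 apart. B2m met the first conditions but not the last, with log2 ratios of -1.52 and 0.17. With 1 library per group the difference between tissues was not tested. For H2-T22 the log2 ratio was -5.65 in the trachea and 1.17 in the stomach, a stomach minus trachea difference of 6.82, and the trachea EGFP value rested on about 1 read. Summed with H2-T10, with which it shares windows of sequence, the log2 ratios were -0.56 and 1.16. For Psmb9 the log2 ratio was 3.13 in the trachea and -0.64 in the stomach, a difference of -3.78, with the lowest of its 4 values (40) in trachea Tomato cells. For H2-T24 the log2 ratio was -0.22 in the trachea and 1.96 in the stomach, a difference of 2.17, and the trachea ratio became 0.36 when all libraries had the same total, so that the directions were then no longer opposite.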

How the results depend on the processing

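Of 132 recomputed counts and medians, 110 kept their direction and stayed within 1.5 times of the reported count. No called class median changed sign. Without the minimum, members called higher in EGFP cells became 5 (reported 2) in the trachea and 2 (1) in the stomach, those higher in the trachea 2 (0) in EGFP and 4 (2) in Tomato cells, and those lower in the trachea 11 (7) in EGFP cells. With a minimum of 200, members lower in the trachea became 3 (7) in EGFP and 1 (3) in Tomato cells, and those higher 1 (2) in Tomato cells. Under the 2-fold rule, which is looser by construction, the stomach gave 3 higher (1) and 12 lower (7), the EGFP pair 2 higher (0) and the Tomato pair 5 lower (3). With the same total, 2 (1) were higher in EGFP cells of the stomach, the second being H2-T24 (log2 2.14). The class I median of the stomach turned positive without the minimum (0.13), with a minimum of 200 (0.15) and with the same total (0.16). That of the trachea turned to 0.018 with a minimum of 200, and that of the EGFP pair to -0.070 without a minimum.

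For the sort term limma called 0 of the genes lower without the minimum (0 of 20633 genes over the table, 819 at an unadjusted p under 0.05), 2 when the pseudocount was 0.1, and 4 in the remaining fits, the robust one among them. For the tissue term it called 0 without the minimum (771 unadjusted over the table, 0 members) and 0 with a pseudocount of 0.1, against 1 otherwise. The cause of these changes was not tested. Summing H2-T22 with H2-T10 removed 2 calls of H2-T22 (log2 -0.56 in the trachea, -1.50 between the EGFP libraries), and summing H2-Q6 with H2-Q7 removed the call of H2-Q7 between the Tomato libraries (log2 0.05).

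Leaving out a library could not be done, since each group had 1. The additive limma fit already compares the sorts within each tissue, and no pairing by replicate number was added because the labels give none. The trachea EGFP library, with about 6.2 M assigned reads, limits low values most: its zeros allow up to 4.83 normalized counts. Amplification from small sorted pools adds error that the intervals do not cover.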

Other observations

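H2 genes that the annotation lists as pseudogenes were outside the set and are given as values in the order trachea EGFP, trachea Tomato, stomach EGFP and stomach Tomato. H2-K2, a relative of H2-K1, was at 0, 66, 68 and 525 normalized counts, H2-Q5 at 5, 61, 2 and 19, and H2-T-ps at 2, 76, 7 and 60, so for each of them a Tomato library held the highest value. With H2-K2 added, H2-K1 had log2 ratios of EGFP over Tomato of -0.83 in the trachea and -1.13 in the stomach. H2-Pa, H2-Pb, H2-Q3, H2-M6-ps and H2-M10.5-ps1 were at 0 in every library.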
